A study of Danio rerio with 6 samples.

Results

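The mitochondrial genome of the zebrafish was followed here through the RNA of its genes in embryonic cells sorted for the transgene pax8:DsRed. The count table assigns 37 of its 32266 genes to the mitochondrial chromosome, and all 37 were taken. By length they are 11 genes above 600 bases (both ribosomal RNA genes and 9 protein-coding genes), 4 protein-coding genes above 100 and up to 600 bases (mt-atp8, mt-nd3, mt-nd4l and mt-nd6), and 22 tRNA genes of 68 to 77 bases. The shortest genes above the limit are mt-atp6 (684 bases) and mt-co2 (691 bases), and the longest below it is mt-nd6 (519 bases). The names of the 13 protein-coding genes come from a table of Ensembl identifiers and match the RefSeq names at the same positions, whereas the rRNA and tRNA genes were named from RefSeq genes with an identical start and end.

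The study asked which genes depend on the homeodomain transcription factors Dlx3b and Dlx4b in the otic-epibranchial progenitor domain (OEPD), the embryonic field that gives rise to the inner ear. All embryos were heterozygous for pax8:DsRed, a transgene that marks this field and the nephric anlagen. The 3 wild-type samples came from embryos for which no control injection is described, and the 3 morphant samples (dlx3p4_MO) from embryos injected at the one-cell stage with antisense morpholinos against dlx3b and dlx4b. Both groups were dissociated at late OEPD stages during early segmentation, and their DsRed-positive cells, separated by flow cytometry, gave the RNA that was sequenced. The dlx3b/4b knockdown therefore cannot be told apart from the injection itself, and in bulk RNA fewer cells of a type and less RNA per cell cannot be told apart either.

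Mitochondrial DNA is a small circle that is present in many copies per cell and is inherited separately from the nuclear chromosomes. Both of its strands are transcribed as long precursors, and excision of the tRNAs that lie between the other genes frees the rRNAs and mRNAs. The rRNAs and tRNAs serve the mitochondrion's own ribosomes, and these translate the mRNAs into core subunits of the respiratory chain complexes I, III and IV and of ATP synthase (complex V). All other subunits, and the enzymes that copy, transcribe and process the genome, are encoded in the nucleus.

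The libraries held 27373965 to 28480101 counted reads in the wild-type samples and 23846555 to 26250129 in the morphant samples. At this depth 3 counts equal 0.105 to 0.126 counts per 1000000 counted reads (CPM), a limit that covers counting error only. The RNA level of a morpholino target does not measure its knockdown: dlx4b had 6.18, 24.7 and 3.93 CPM in replicates 1, 2 and 3 of the wild-type and 4.15, 8.68 and 23.8 CPM in the morphant replicates, and dlx3b was not matched to an identifier here. Otic markers (5 of 9 matched) summed to 385 to 637 CPM in the wild-type samples and 437 to 532 CPM in the morphant samples. The largest member in every library was pax8 (233 to 405 CPM over the 6 libraries), so that smaller members can vary without showing in the sum. Among these, foxi1 had 8.57, 19.5 and 5.09 CPM in the wild-type replicates and 4.38, 12.7 and 26.2 CPM in the morphant replicates. Of the 5, only eya1 had a fitted log2 fold change below 0 (−1.09, SE 0.35, edgeR adjusted p = 0.107). It had 83.5, 209 and 67.9 CPM in the wild-type replicates and 33.1, 50.6 and 74.9 CPM in the morphant replicates. Nephric markers (2 of 4 matched) summed to 299 to 332 CPM and 361 to 411 CPM, and osr1 passed the test as higher. Markers of blood and vessel (3 of 4 matched) summed to 2120 to 2919 CPM in the wild-type samples and 1724 to 1845 CPM in the morphant samples, and gata1a and lmo2 among them passed the test as lower. Markers of paraxial mesoderm and muscle (6 of 7 matched) summed to 25.6 to 52.8 CPM, and those of yolk and endoderm (all 3 matched) to 4.19 to 8.91 CPM, over the 6 libraries. Neural tube markers (all 5 matched) summed to 47.4, 101.6 and 40.5 CPM in replicates 1 to 3 of the wild-type and to 20.3, 69.3 and 90.7 CPM in morphant replicates 1 to 3. No matched marker was at 0 in all libraries, and the part of these cell types in the values below was not tested.

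Mitochondrial genes took 3.09, 4.63 and 2.10% of all counted reads in wild-type replicates 1, 2 and 3. In the morphant replicates they took 2.21, 2.11 and 2.02%. The morphant samples thus lay close together, whereas the wild-type samples ranged from the morphant level to more than any morphant sample. The means were 3.27 ± 1.27% (SD, n = 3) in the wild-type samples and 2.11 ± 0.0941% (SD, n = 3) in the morphant samples, a difference of −1.16 percentage points. This difference was smaller than the spread between the wild-type samples, and the groups overlapped (exact permutation test over samples, two-sided, p = 0.3, where 3 against 3 cannot give less than 0.1). Without wild-type replicate 2 it was −0.480 points, and without wild-type replicate 3 it was −1.74 points.

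**Figure D1:**
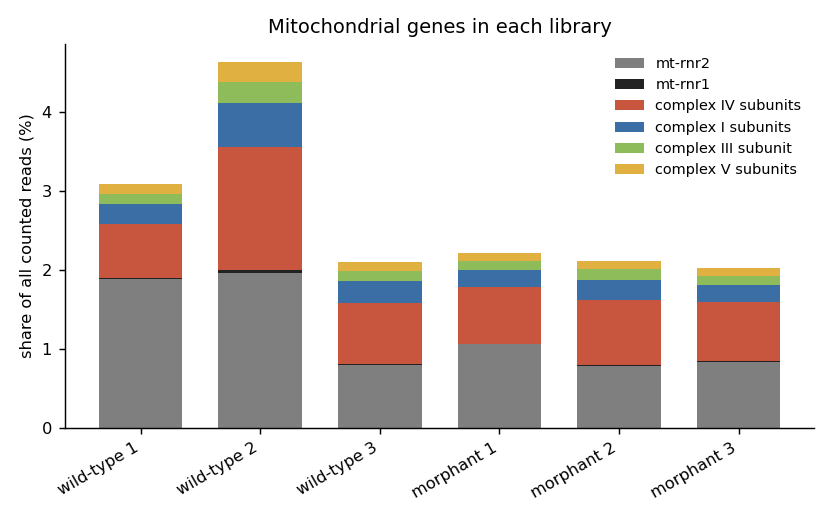
Each bar is 1 library and its height is the share of all counted reads, in percent, on the rRNA and protein-coding genes of the mitochondrial genome, split by gene or complex; tRNA genes are left out. Wild-type replicate 1 (total 3.09%) has a large mt-rnr2 segment, wild-type replicate 2 (4.63%) is larger in all segments, and the other 4 bars lie between 2.02 and 2.21%.

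Wild-type replicates 1 and 2 both exceeded replicate 3 in mt-rnr2, and replicate 2 exceeded it in mt-rnr1 and the protein-coding genes as well. In wild-type replicate 2, every one of the 13 protein-coding genes had its highest CPM of the 6 libraries. The ratio of replicate 2 to replicate 3 over the 9 long protein-coding genes had a median of 2.09 (range 1.91 to 2.22), and that of replicate 2 to replicate 1 had a median of 2.21 (range 1.84 to 2.57). Replicate 1 differed little from replicate 3 in the same genes, with a median ratio of 0.926 (range 0.863 to 1.141), but had 2.37 times its CPM of mt-rnr2. Both rRNA genes were likewise higher in replicate 2 than in replicate 3, by 2.48 times for mt-rnr2 and by 3.14 times for mt-rnr1. Of the 6 libraries, replicate 2 also had the highest summed CPM of otic markers (637), of neural tube markers (101.6) and of yolk and endoderm markers (8.91). Within these lists, eya1 (209 CPM), dlx4b (24.7 CPM), sox2 (38.2 CPM), sox3 (51.2 CPM) and apoa1b (7.16 CPM) were highest in replicate 2. The other matched members, pax8, foxi1, gata3, neurog1, elavl3, her5, sox17 and sox32, were highest in other libraries. Within the wild-type group alone, replicate 2 was also the highest for pax8, foxi1, gata3, neurog1 and her5. It was not the highest wild-type sample for elavl3, sox17 and sox32. The part of these markers in the mitochondrial counts of replicate 2 was not tested.

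Only the tRNA gene trnV lies between the rRNA genes on the forward strand. Positions are those of the count table, made on GRCz11 by the study's methods and on GRCz10 by the labels. The rRNA genes are mt-rnr1 at chrM 1020 to 1971 and mt-rnr2 at chrM 2043 to 3725. They encode the RNA of the small and of the large subunit of the mitochondrial ribosome. The larger one, mt-rnr2, had 18766, 19616 and 7911 CPM in replicates 1, 2 and 3 of the wild-type and 10529, 7807 and 8328 CPM in the morphant replicates. It ranked 2 among all genes by mean CPM and 1 by CPM per kb of gene length. The other, mt-rnr1, had 117, 349 and 111 CPM in the wild-type samples and 99.2, 78.5 and 132 CPM in the morphant samples, so that the groups overlapped for both genes. Per base of gene length, mt-rnr2 stood 90.9, 31.8 and 40.3 times above mt-rnr1 in the wild-type replicates and 60.04, 56.3 and 35.6 times above it in the morphant replicates. A mitochondrial ribosome holds one copy of each RNA. The labels name a poly-dT enrichment of the RNA, whose part in this ratio was not tested.

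Together, the rRNA genes took 61.1, 43.2 and 38.3% of mitochondrial counts in the wild-type samples and 48.1, 37.4 and 41.9% in the morphant samples (exact permutation test, two-sided, p = 0.6). Set against the summed counts of the protein-coding genes, mt-rnr2 gave ratios of 1.56, 0.746 and 0.612 in the wild-type samples and 0.920, 0.591 and 0.710 in the morphant samples (exact permutation test, p = 0.6). Wild-type replicate 1 was the highest in both measures, followed by morphant replicate 1. Without wild-type replicate 1, the difference between the groups changed its direction, to 1.76 percentage points for the rRNA share and to 0.0613 for the ratio.

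The protein-coding genes took 1.20, 2.63 and 1.29% of all counted reads in replicates 1, 2 and 3 of the wild-type and 1.145, 1.32 and 1.17% in the morphant replicates (exact permutation test, two-sided, p = 0.4). Only wild-type replicate 2 stood outside a range of 1.145 to 1.32%. Without it, the difference of the means shrank from −0.494 to −0.0337 percentage points, and without wild-type replicate 1 it was −0.748 points. The shift in mitochondrial mRNA by this measure did not exceed the spread of the wild-type samples.

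Complex IV, cytochrome c oxidase, passes electrons to oxygen, and its 3 core subunits were the mRNAs with the highest mean CPM per kb of gene length. The catalytic subunit mt-co1 (chrM 6425 to 7975, forward strand) had 4029, 8913 and 4657 CPM in the wild-type samples and 4266, 4961 and 4181 CPM in the morphant samples. For mt-co2 (chrM 8130 to 8820), which receives electrons from cytochrome c, the values were 1315, 3044 and 1433 CPM in the wild-type samples and 1348, 1466 and 1457 CPM in the morphant samples. The third core subunit, mt-co3 (chrM 9735 to 10520), had 1569, 3546 and 1695 CPM in the wild-type samples and 1507, 1813 and 1769.8 CPM in the morphant samples. In all 3 genes the morphant samples lay around wild-type replicates 1 and 3 and below replicate 2.

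Complex V, ATP synthase, uses the proton gradient to make ATP. Its subunit mt-atp6 (chrM 9052 to 9735), part of the proton channel, had 1324, 2439 and 1160.1 CPM in the wild-type samples and 907, 1025 and 953 CPM in the morphant samples. The small accessory subunit mt-atp8 (chrM 8894 to 9058), whose gene shares 7 bases with mt-atp6, had 36.5, 78.1 and 34.2 CPM in the wild-type samples and 26.1, 30.9 and 30.8 CPM in the morphant samples. In both genes all morphant samples lay below all wild-type samples. Reads over the shared bases cannot be assigned to one of the 2 genes.

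Complex I, NADH dehydrogenase, takes up electrons from NADH, and 7 of the 13 protein-coding genes encode membrane subunits of it. For mt-nd4 (chrM 11299 to 12679) the levels were 632, 1259.6 and 623 CPM in the wild-type samples and 528, 578 and 441 CPM in the morphant samples, without overlap. For mt-nd4l (chrM 11009 to 11305), which overlaps mt-nd4 by 7 bases, they were 65.2, 135 and 59.2 CPM in the wild-type samples and 49.98, 60.5 and 48.6 CPM in the morphant samples. Here morphant replicate 2 lay above wild-type replicate 3.

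For mt-nd5 (chrM 12897 to 14717), one of the proton-pumping subunits, wild-type samples had 393, 1009 and 455 CPM and morphant samples 353, 417 and 319 CPM. Its neighbour mt-nd6 (chrM 14714 to 15232) is the only protein-coding gene on the reverse strand. It had 27.9, 92.9 and 34.9 CPM in the wild-type samples and 22.6, 27.2 and 25.5 CPM in the morphant samples. The groups did not overlap for mt-nd6, whereas for mt-nd5 morphant replicate 2 lay above wild-type replicate 1. The remaining complex I genes overlapped more. Wild-type samples had 624, 1531 and 724 CPM of mt-nd1 (chrM 3803 to 4777), and morphant samples had 642, 704 and 625 CPM. The levels of mt-nd2 (chrM 4993 to 6039) were 675, 1409 and 691 CPM in the wild-type samples and 559, 709.7 and 568 CPM in the morphant samples. Those of mt-nd3 (chrM 10590 to 10940) were 91.97, 217 and 105 CPM in the wild-type samples and 94.4, 110.4 and 114 CPM in the morphant samples. In these 3 genes at least 1 morphant sample lay above 1 or more wild-type samples.

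Complex III, which hands electrons on to cytochrome c, has a single subunit in this genome, mt-cyb (chrM 15308 to 16448), the cytochrome b. Its levels were 1211, 2609 and 1264 CPM in the wild-type samples and 1144, 1301 and 1202 CPM in the morphant samples. They overlapped, with wild-type replicate 2 apart from the other 5 libraries.

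**Figure D2:**
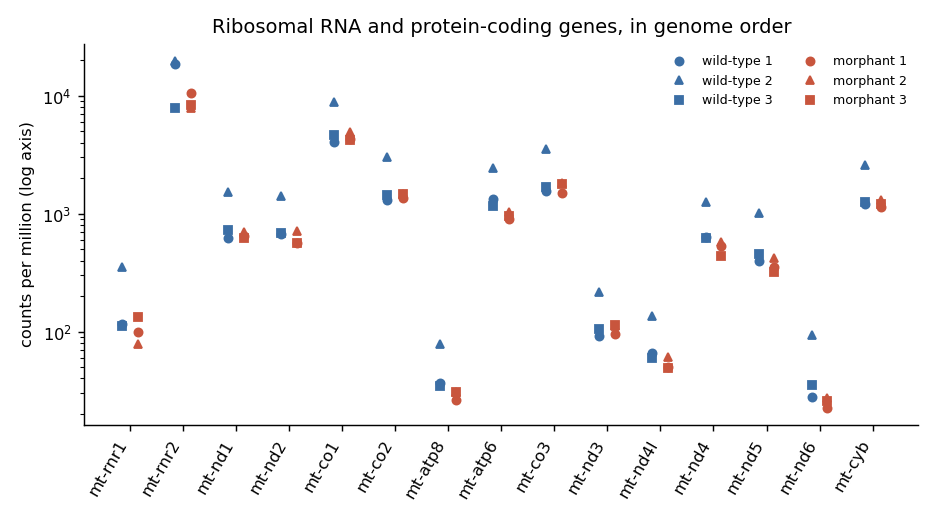
CPM on a log axis for both rRNA genes and the 13 protein-coding genes, in the order of the genome; wild-type samples are blue, morphant samples red, and circles, triangles and squares are replicates 1, 2 and 3. The blue triangle (wild-type replicate 2) is the highest point of every protein-coding gene, for example at 8913 CPM of mt-co1, whereas wild-type replicates 1 and 3 lie near the morphant points.

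The order of the genes by CPM per kb of gene length was nearly the same in all 6 libraries. Reads that cross the end of a gene weigh more in short genes, such as mt-atp8 with 165 bases. Their part in this order was not tested, so that it need not be the order of the RNA amounts. Mean CPM per kb of the mRNAs ranged from 3782 in the wild-type and 2882 in the morphant samples for mt-co1 to 100.04 and 48.3 for mt-nd6. By this scale mt-rnr2 held rank 1, mt-co1 rank 2, mt-cyb rank 6, mt-rnr1 rank 14 and mt-nd6 rank 15 of the 15 rRNA and protein-coding genes in every library. Neighbours that exchanged ranks between libraries were mt-co3, mt-co2 and mt-atp6 (ranks 3 to 5), mt-nd1 and mt-nd2 (7 and 8), mt-nd4 and mt-nd3 (9 and 10), and mt-nd5, mt-atp8 and mt-nd4l (11 to 13). The 3 complex IV genes had 2794 to 3782 CPM per kb in wild-type, whereas the 7 complex I genes had 100.04 to 984, with no overlap between the complexes. Among all genes, 6 mitochondrial genes (mt-rnr2, mt-co1, mt-co3, mt-co2, mt-cyb and mt-atp6) were within the 100 of highest mean CPM.

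Differences between the groups were then tested gene by gene in a fit over all 17526 genes with sufficient counts, with a block for the replicate number. Of the 37 mitochondrial genes 22 entered this fit, namely both rRNA genes, the 13 protein-coding genes and 7 tRNA genes. At an adjusted p below 0.1 it called 4 of them, all lower in the morphant samples, which is 18.2% of those tested, whereas 10.9% of all tested genes were called, 6.05% lower and 4.85% higher. The log2 fold change was −0.69 for mt-atp6 (SE 0.18, adjusted p = 0.0633), −0.62 for mt-nd4 (SE 0.17, adjusted p = 0.0666), −0.61 for mt-nd4l (SE 0.18, adjusted p = 0.0879) and −0.64 for mt-nd5 (SE 0.20, adjusted p = 0.0972; all by the edgeR fit). The 3 morphant samples all lay under the lowest wild-type sample for mt-atp6 and mt-nd4, and for mt-nd4l and mt-nd5 this held for 2 of the 3 morphant samples. The CPM of the groups did not overlap in 4 of the 22 genes (mt-atp8, mt-atp6, mt-nd4 and mt-nd6), a smaller share than the 30.8% of all tested genes. All 4 were lower in the morphant samples, and 18.2% of the 22 is near the 16.8% of all tested genes that were separate in this direction.

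The other genes did not pass this test. Next to the threshold were mt-nd2 (log2 fold change −0.51, adjusted p = 0.103), mt-nd6 (−0.84, adjusted p = 0.107) and mt-atp8 (−0.65, adjusted p = 0.1201). The rRNA gene mt-rnr2 had −0.69 (SE 0.24, adjusted p = 0.130), and mt-rnr1 had −0.68 (SE 0.39, adjusted p = 0.345). Among the mRNAs, the complex IV genes had the values nearest to 0 after mt-nd3, with −0.30 for mt-co1, −0.32 for mt-co2 and −0.31 for mt-co3 (adjusted p = 0.368, 0.415 and 0.391). For mt-nd3, mt-cyb and mt-nd1 the values were −0.26, −0.38 and −0.42 (adjusted p = 0.501, 0.279 and 0.269). The fitted value was below 0 for 21 of the 22 genes and for all 13 protein-coding genes, with a median of −0.61 over the 22 and −0.51 over the 13, whereas the median of all tested genes was −0.01.

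These values depended on wild-type replicate 2. Without it and without the block, 14 of 22 fitted values were below 0 and their median was −0.17. The values of mt-co1, mt-co2, mt-co3 and mt-nd3 then changed their sign, to 0.07, 0.08, 0.08 and 0.14. The sign also changed for mt-cyb, to 0.0006, for trnI, to 0.08, and for another tRNA gene, to 0.11. A single mitochondrial gene was called in that fit, mt-atp6, at −0.34 (SE 0.086, edgeR adjusted p = 0.0428), while 6.01% of all tested genes were called lower. With all 6 libraries but no block, mt-atp6 was again the only call (−0.78, SE 0.24, adjusted p = 0.0848), against 13.7% of all tested genes in either direction and 7.52% in this one. DESeq2 with the block gave 17 mitochondrial genes an adjusted p. It called 5 of the 17 lower (mt-atp6, mt-atp8, mt-nd2, mt-nd4 and mt-nd4l), against 7.1% of all genes with an adjusted p. DESeq2 without the block called mt-atp8 alone, and for mt-atp6 it gave no call (adjusted p = 0.166). With the block, the calls ranged from 0 without replicate 1 or replicate 2 of either group to 14 without replicate 3 of either group, while the calls over all genes ranged from 185 to 4144. Under the block, a library without its same-numbered partner carries no information on the group difference. Leaving out 1 sample or its whole replicate is thus nearly the same fit, and these fits cannot tell which sample of a replicate matters.

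**Figure D3:**
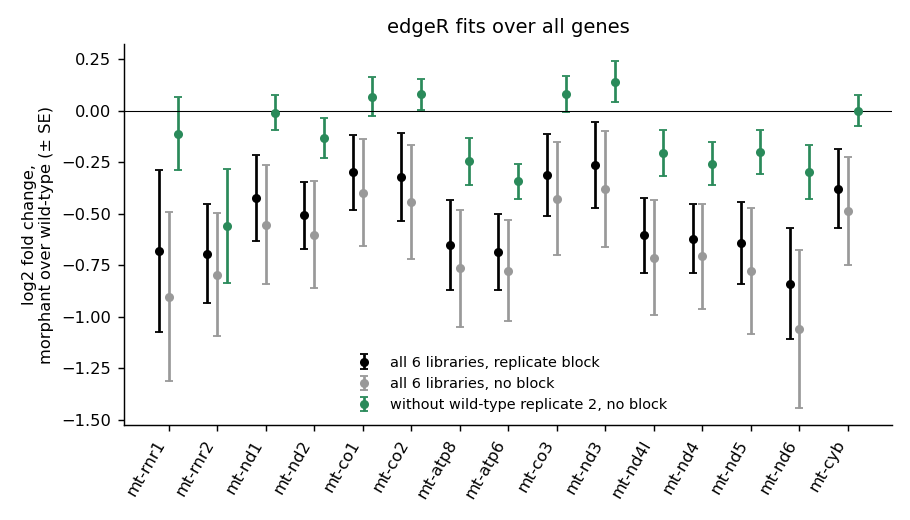
Log2 fold change of morphant over wild-type samples with its standard error for both rRNA genes and the 13 protein-coding genes, from edgeR fits over all genes with the replicate block (black), without it (grey), and without it and without wild-type replicate 2 (green). The black and grey points all lie below 0, whereas the green points of mt-co1, mt-co2, mt-co3 and mt-nd3 lie between 0.07 and 0.14 and that of mt-atp6 at −0.34.

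With wild-type replicate 2 included, the balance among the mRNAs varied less over the 6 libraries than their total did. Their total was highest in wild-type replicate 2, at 2.63% of all counted reads, against 1.145 to 1.32% in the others. The coefficients of variation below include this library and were not computed without it. They therefore do not show whether the contrast holds among the other libraries, whose totals lay close together. The coefficient of variation over the 6 libraries had a median of 41.7% (range 36.1 to 52.6%) for the CPM of the 9 long protein-coding genes. As a share of the mitochondrial mRNA counts, that is the summed counts of the 13 protein-coding genes, the same genes had a median of 5.62% (range 1.703 to 13.9%). Over all 13 genes the median was 43.4% (range 36.1 to 70.0%) for CPM and 8.41% (range 1.703 to 23.8%) for the share. In both measures mt-nd6 varied most. The steadiest was mt-cyb, at 9.77 to 10.2% of mRNA counts in every library. Since the shares of a library sum to a fixed whole, they are not independent of each other, and these measures were added after the counts had been seen.

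By this measure complex IV took a larger share in the morphant samples, and complexes I and V a smaller one. The complex IV genes took 57.6, 58.98 and 60.2% of mRNA counts in the wild-type samples and 62.2, 62.4 and 63.1% in the morphant samples. Their means were 58.9 ± 1.27% and 62.6 ± 0.478% (SD, n = 3 each), a difference of 3.65 percentage points. The complex I genes took 20.9, 21.5 and 20.8% in the wild-type samples and 19.6, 19.7 and 18.3% in the morphant samples, with a difference of −1.87 points. Complex V shares were 11.3, 9.58 and 9.23% in the wild-type samples and 8.15, 8.001 and 8.39% in the morphant samples, also with a difference of −1.87 points. In each of these 3 complexes the groups did not overlap. The complex III share overlapped, at 10.1, 9.93 and 9.77% in the wild-type samples and 9.99, 9.85 and 10.2% in the morphant samples (exact permutation test, two-sided, p = 0.6).

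For the complexes without overlap, the exact permutation test gave p = 0.1, the smallest that 3 against 3 samples allow, and 0.3 after Benjamini-Hochberg adjustment over the 12 measures tested in this way. The test thus cannot place these differences below 0.05. Leaving out each sample or replicate in turn gave 2.998 to 4.27 points for complex IV, −2.17 to −1.39 for complex I and −2.38 to −1.21 for complex V, where groups that do not overlap fix the direction. Without wild-type replicate 2 they were 3.67, −1.66 and −2.11 points, about as large as with this library. Without wild-type replicate 1, which had the highest complex V share, the complex V difference was −1.22 points. Counted per base of gene length, the differences were 3.87, −1.27 and −2.78 points.

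**Figure D4:**
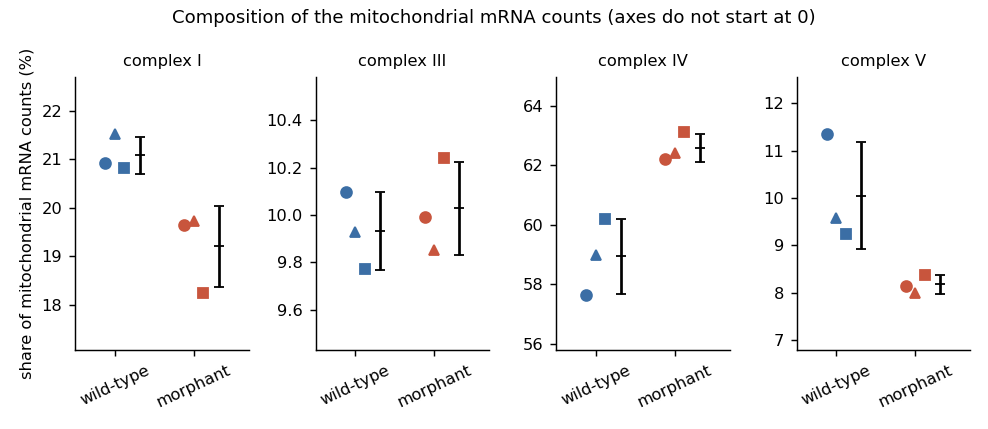
Share of mitochondrial mRNA counts, in percent, of the genes of each complex in wild-type (blue) and morphant (red) samples; circles, triangles and squares are replicates 1, 2 and 3, black bars are the mean ± SD, and the axes do not start at 0. The groups are separate for complex I, complex IV (57.6 to 60.2% against 62.2 to 63.1%) and complex V, and overlap for complex III.

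Within the complexes, genes differed in their shares. The share of mRNA counts did not overlap between the groups for 5 of the 13 genes, mt-atp6, mt-atp8, mt-nd4, mt-nd5 and mt-nd6, all lower in the morphant samples. These are 38.5% of the 13. Of all tested genes, 30.8% had separate CPM in either direction, and 16.8% had separate CPM that was lower in the morphant samples. CPM is another measure than a share of mRNA counts. For mt-atp6 the shares were 11.04, 9.28 and 8.97% in the wild-type samples and 7.92, 7.77 and 8.12% in the morphant samples. For mt-nd4 they were 5.27, 4.79 and 4.82% in the wild-type samples and 4.61, 4.38 and 3.76% in the morphant samples. For mt-nd5 they were 3.28, 3.84 and 3.52% against 3.08, 3.16 and 2.72%. By contrast, mt-nd1 (5.21 to 5.83% in wild-type, 5.33 to 5.604% in the morphant samples) and mt-nd3 (0.767 to 0.826% and 0.824 to 0.975%) of the same complex I overlapped.

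None of the complex IV genes was separate on its own, although their sum was: mt-co1 took 33.6, 33.9 and 36.0% in the wild-type samples and 37.3, 37.6 and 35.6% in the morphant samples, and mt-co3 took 13.1, 13.5 and 13.1% against 13.2, 13.7 and 15.1%. Morphant replicate 3 had the lowest mt-co1 share and the highest mt-co3 share of its group. The ratio of mt-co1 to mt-nd5 counts was 10.2, 8.83 and 10.2 in the wild-type samples and 12.1, 11.9 and 13.1 in the morphant samples (exact permutation test, two-sided, p = 0.1, 0.3 after adjustment over the 12 measures).

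The count of separate genes changed with the choice of the whole. As a share of all mitochondrial counts, in which mt-rnr2 alone ranged from 37.0 to 60.8%, none of the 11 long genes had separate groups (lowest exact permutation p = 0.4, two-sided, adjusted p = 0.9 over the 11 genes). With mt-rnr2 left out of the whole, 3 of the other 10 long genes did, mt-atp6, mt-nd4 and mt-nd5 (exact permutation p = 0.1, adjusted p = 0.333 over the 10 genes). All 3 were lower in the morphant samples. By CPM, another measure, 30.8% of all tested genes were separate in either direction and 16.8% in this one. The 4 intermediate genes together took 0.718, 1.13 and 1.11% of mitochondrial counts in the wild-type samples and 0.874, 1.09 and 1.09% in the morphant samples (exact permutation test, two-sided, p = 1).

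Transfer RNAs bring amino acids to the ribosome, and their genes punctuate the mitochondrial genome. All 22 together had 170, 520 and 281 counts in replicates 1, 2 and 3 of the wild-type and 196, 186 and 119 in the morphant replicates, or 0.0197 to 0.0471% of mitochondrial counts. These shares overlapped between the groups (exact permutation test, two-sided, p = 0.6). The 7 genes trnV, trnL1, trnK, trnG, trnR, trnS2 and trnL2 had 0 counts in every library, and 3 others stayed at 3 counts or fewer. Only 12 exceeded 3 counts in some library, and these 12 hold 8 reverse-strand genes, which are all of that strand, and 4 of the forward strand.

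The 5 tRNA genes with the highest mean counts were trnM, trnI, trnN, trnP and trnQ, the tRNAs for methionine, isoleucine, asparagine, proline and glutamine. For trnM, at chrM 4924 to 4992 on the forward strand, the libraries held 59, 112 and 65 counts in the wild-type samples and 47, 56 and 23 in the morphant samples. For trnI (chrM 4781 to 4854, forward strand) they held 27, 131 and 68 counts in the wild-type samples and 62, 45 and 26 in the morphant samples. As for the mRNAs, wild-type replicate 2 was the highest in both. The reverse-strand genes trnN (chrM 6178 to 6250) and trnQ (chrM 4852 to 4922) had 17, 52 and 26 and 8, 37 and 26 counts in wild-type, and 17, 14 and 10 and 14, 9 and 11 counts in the morphant samples. For trnP (chrM 16527 to 16596, reverse strand) wild-type replicate 3 was highest, with 14, 32 and 49 counts in the wild-type samples and 7, 22 and 8 in the morphant samples. None of the 7 tRNA genes tested passed, with log2 fold changes of −1.21 to 0.28 and a lowest adjusted p of 0.216 in the edgeR fit.

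Counts on most tRNA genes went with the space around the gene, with trnF and trnT as exceptions. The space between its neighbours on the same strand was 68 to 77 bases for 8 tRNA genes, and these had at most 1 count in a library, with 7 of them at 0. For 10 others this space was 102 bases or more, and all 10 exceeded 3 counts in some library. The remaining 4 are the first or last of their strand in the numbering, and around the circle their space is at least 1095 bases. Of these, trnQ and trnP exceeded 3 counts, whereas trnF and trnT had at most 2 counts despite the wide space. The labels give a read length of 75 bases, and a read of this length fits inside 2 of the 8 narrow spaces, those of trnL1 and trnL2 with 77 bases, both at 0. Counted over both strands, the space was under 75 bases for 7 of the 12 tRNA genes above 3 counts. How much of the counts on tRNA genes comes from mature tRNA was not tested.

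**Figure D5:**
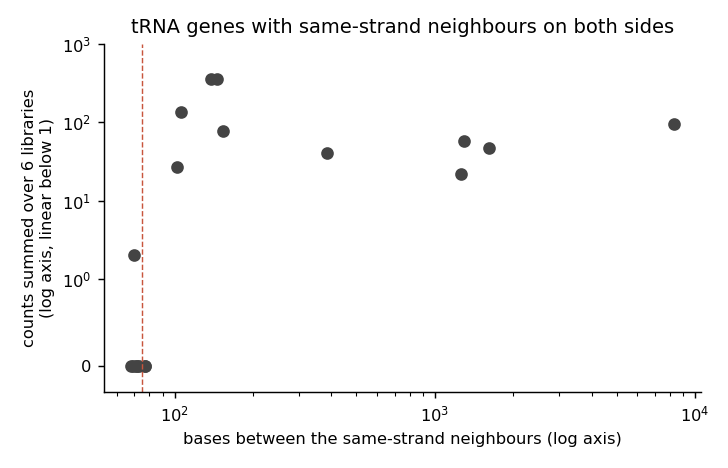
Counts summed over the 6 libraries (log axis, linear below 1) of the 18 tRNA genes with a same-strand neighbour on both sides in the numbering (trnF, trnQ, trnT and trnP are left out), against the bases between these neighbours (log axis); the dashed line marks 75 bases. Genes with 68 to 77 bases between their neighbours have 0 counts in 7 of 8 cases, and all 10 genes with 102 bases or more have counts.

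Few reads fell on genes of the reverse strand. The 9 genes annotated there (mt-nd6 and 8 tRNA genes) took 0.0989, 0.218 and 0.188% of mitochondrial counts in the wild-type samples and 0.115, 0.141 and 0.138% in the morphant samples (exact permutation test, two-sided, p = 0.4). Per base of gene length, mt-nd6 had 0.249, 0.323 and 0.269 times the counts of its neighbour mt-nd5 in the wild-type samples and 0.224, 0.229 and 0.281 times in the morphant samples. The part of the poly-dT enrichment named by the labels in these values was not tested. Whether reads were counted by strand is not given, so that reads from mt-nd6 and antisense reads over the same bases cannot be told apart. The same holds for the 4 bases that mt-nd5 and mt-nd6 share.

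The nuclear genes of mitochondrial function were read against the same background. Of 73 listed, 63 were matched and 61 tested, and 1 was called higher and 4 lower in the morphant samples. These 5 are 8.20% of those tested, against 10.9% of all tested genes, and the median log2 fold change of the 61 was −0.03. Among them, 28 tested nuclear subunits of the respiratory chain had 0 calls with the block, with a median of −0.07. Of the 28, 2 had an unadjusted edgeR p below 0.05, a cut for which the share of all tested genes is not given here. The subunits had 2 calls without the block, against 13.7% of all tested genes, and 0 by DESeq2 with the block, against 13.8%. Their summed level was 3579.6, 3834 and 3508 CPM in replicates 1, 2 and 3 of the wild-type and 3215, 3347 and 3624 CPM in the morphant replicates. Wild-type replicate 2 was the highest here too, but by 1.07 and 1.09 times over the other wild-type samples, whereas the median over the 9 long mitochondrial mRNAs was 2.21 and 2.09 times.

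The machinery that transcribes, copies and processes mitochondrial RNA had 0 calls among 24 tested genes, against 10.9% of all tested genes. DESeq2 with the block called 0 of them, against 13.8% of all tested. In this machinery 0 genes had an unadjusted edgeR p below 0.05, where the share of all tested genes is likewise not given. The transcription factor tfam, which also packages mitochondrial DNA, had 43.3, 48.7 and 42.0 CPM in the wild-type samples and 41.3, 43.4 and 47.1 CPM in the morphant samples (edgeR adjusted p = 0.947). The 5 calls of the nuclear list were in other genes. The coactivator ppargc1a, known in mammals as a driver of mitochondrial biogenesis, had 50.3, 49.2 and 60.5 CPM in the wild-type samples and 30.02, 33.5 and 25.1 CPM in the morphant samples (log2 fold change −0.85, SE 0.14, edgeR adjusted p = 0.0149). Its relative ppargc1b rose, from 6.36, 6.72 and 7.02 CPM to 14.1, 14.1 and 10.3 CPM (0.93, SE 0.19, adjusted p = 0.0308). Neither gene overlapped between the groups. Blood and vessel markers were lower in the morphant samples as well (summed levels above), and their part in these differences was not tested.

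Of the listed outer membrane channels, which pass metabolites, vdac1 and vdac3 were also lower in the morphant samples, whereas vdac2 was not. The more abundant vdac2 had 451, 449 and 465 CPM in the wild-type samples and 487, 507 and 553 CPM in the morphant samples. It was not called (log2 fold change 0.18, SE 0.096, edgeR adjusted p = 0.295). For vdac1 the levels were 209, 209.9 and 191 CPM in the wild-type samples and 130.2, 118 and 112 CPM in the morphant samples (−0.76, SE 0.099, edgeR adjusted p = 0.00584). For vdac3 they were 31.6, 29.7 and 31.9 CPM in the wild-type samples and 16.4, 22.5 and 20.0 CPM in the morphant samples (−0.67, SE 0.14, adjusted p = 0.0292). The transcription factor gabpa, a regulator of nuclear respiratory genes in mammals, was the fifth call (−0.37, SE 0.10, adjusted p = 0.0754).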

How the data were processed

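RNA of sorted cells was sequenced in 6 libraries, 3 per group. The labels gave the group and the replicate number. The authors deposited raw read counts per Ensembl gene, without normalization. The study's methods give GSNAP on GRCz11, featureCounts on uniquely aligned reads, and a library protocol based on Smart-seq2, whereas the labels give GRCz10, featureCounts 1.5.2, bcl2fastq 2.17.1.14 and a strand-specific kit after poly-dT enrichment. The strand setting of the counting is not given in the sources used here. Coordinates are those of the count table, and RefSeq names (assembly GRCz12tu) were used only as names. Reads that also align to nuclear copies of mitochondrial DNA are lost when unique alignments are counted, and this was not tested.

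From the counts, CPM, shares of all counts and shares of mitochondrial counts were computed. Differential expression was tested over all genes with edgeR 4.0.16 in R 4.3.3 (filterByExpr, TMM, quasi-likelihood test, replicate number as a block, Benjamini-Hochberg adjustment, called at an adjusted p below 0.1). The block stands in for the clutch of the study's multi-factor design. The methods describe biological replicates, and no source used here assigns clutches to samples. The SE is the size of the log2 fold change divided by the square root of F. Shares were compared with an exact permutation test over the 10 splits of 6 samples (scipy 1.17.1), and the code was tested on simulated counts.

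Alternatives were a model with no block, DESeq2 1.42.0 under both models, RLE scaling, scaling outside the mitochondrial genome, no filter, a minimum of 10 counts per sample, a threshold of 0.05, and leaving out each sample or replicate. Shares by complex, the ratios of single genes, and leaving out samples without the block were chosen after seeing the data. The genes and lists were chosen with earlier results of these data known. All genes above 100 bases are named, and of the tRNA genes the 5 with the highest mean count and any that passed. Other tRNA genes are named only where they are at 0 or lack a neighbour, a choice made after their counts were seen. Outside the mitochondrial genome, called genes of the lists are named, and a few uncalled genes were added as markers or examples.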

Additional observations from a re-analysis of the deposited data

How the results depend on the processing

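With 3 samples per group, few calls were stable. Instead of 4 mitochondrial genes, an adjusted p below 0.05 called 0 (3.32% of all tested genes called lower), no filter on low counts 12 of 30 (5.94%), RLE scaling 3 (5.69%), scaling outside the mitochondrial genome 3 (5.87%), and a minimum of 10 counts 3 (6.84%). With DESeq2 the block gave 5 calls among 17 genes (7.1% of all tested genes lower), and 3 of the calls were shared with edgeR. With the block, leaving out 1 sample or its whole replicate, which is nearly the same fit, gave 0 to 14 calls, while 0.691 to 11.3% of all tested genes were called lower. Leaving out samples without the block gave 2 calls without wild-type replicate 1 (mt-nd5 and mt-nd6, 4.11% of all tested genes lower), 1 without wild-type replicate 2 (6.01%), 6 without wild-type replicate 3 (6.71%) and 0 without any one of the morphant samples (3.23 to 3.80%). The count of long genes with separate shares of mitochondrial counts was 0, 3 with mt-rnr2 left out of the whole, and 0 to 4 on leaving out samples. Smaller groups are more easily separate, and the share of all tested genes with separate groups is not given for them. With all 6 samples and by CPM, another measure, it was 30.8%.

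The replicate numbers did not clearly pair the samples. The correlation of deviations from the group mean in log CPM was 0.156, 0.0541 and −0.143 between same-numbered samples of replicates 1, 2 and 3. Between differently numbered samples it ranged from −0.241 to 0.222. With no replicate block edgeR called 1 mitochondrial gene (mt-atp6) and DESeq2 called 1 other (mt-atp8, 9.46% of all tested genes lower), while the calls over all genes went from 1911 to 2405 in edgeR, and the nuclear list went from 5 to 7 calls. For the mitochondrial share of counts, the mean difference within same-numbered pairs is −1.16 points by construction, as it equals the difference of the group means. A sign-flip permutation test of these differences gave p = 0.25, the smallest that 3 pairs allow.

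Leaving out samples changed the direction of some differences. The ranges were −0.0147 to 0.00356 points for the tRNA share, −0.106 to 0.101 for the share of intermediate genes, −9.68 to 1.76 for the rRNA share, −0.0901 to 0.197 for complex III and −0.415 to 0.0613 for the ratio of mt-rnr2 to the protein-coding genes. With the block, log2 fold changes ranged from −1.21 to 0.056 for mt-rnr1, −0.514 to 0.0105 for mt-co1, −0.529 to 0.0769 for mt-co2, −0.525 to 0.0487 for mt-co3, −0.486 to 0.13 for mt-nd3 and −1.32 to 0.126 for trnI. Without the block and without wild-type replicate 2 they were 0.0685 for mt-co1, 0.0788 for mt-co2, 0.0819 for mt-co3, 0.141 for mt-nd3, 0.000598 for mt-cyb and 0.0839 for trnI. The mitochondrial share kept its direction, at −1.74 to −0.478 points. Apart from fewer samples or genes, the cause of these changes was not tested.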
